A study of Mus musculus with 12 samples.

Results

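The translation initiation and elongation factors were taken as the protein-coding genes of the count table whose Gencode symbol begins with Eif or Eef followed by a digit, plus the release factors *Etf1* and *Gspt1*. The rule found 89 genes among the 56065 deposited and the 21599 that are protein-coding. Another 15 genes with such symbols are pseudogenes or non-coding RNAs and were left out. Expression was measured by bulk RNA-sequencing of the submandibular gland (SMG) in 4 groups of 3 mice aged 8 weeks: C57BL/6J wild-type mice of each sex, and mice of each sex labelled C57BL/6J-Pou2f3 knockout. The knockout is global and present from conception, so it is not limited to the gland; *Pou2f3* encodes the transcription factor that defines tuft cells, a rare chemosensory epithelial cell type. Each library is 1 gland sample from 1 mouse, and no group received a treatment.

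Protein synthesis starts when eIF2 carries the initiator tRNA to the small ribosomal subunit, where eIF1, eIF1A, eIF3 and eIF5 assemble with it. The eIF4 factors bind the mRNA cap, unwind the leader and bring mRNA and ribosome together. eIF2B recharges eIF2 with GTP, and kinases that phosphorylate eIF2 block that step under stress. During elongation eEF1A delivers aminoacyl-tRNA and eEF2 moves the ribosome along, and eRF1 (*Etf1*) with eRF3 (*Gspt1*) ends the chain at the stop codon. Acinar cells of salivary glands are secretory cells with a high rate of protein synthesis, and the SMG of male mice has large granular convoluted tubules that make growth factors and kallikreins.

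Total counts ran from 47031917 to 67881902 per library, and values are given as CPM, the count scaled to a common library size, after TMM scaling of the library sizes. The TMM factors differed between groups, with a range of 0.625 to 0.759 for the wild-type and 0.902 to 1.03 for the knockout females, and of 1.04 to 1.45 for the wild-type and 1.11 to 1.25 for the knockout males, so that all levels are relative to the other genes of a library. *Pou2f3* itself had 0 to 2 counts per wild-type and 0 per knockout female library, and 0 to 10 per wild-type and 0 to 3 per knockout male library, too few to check the genotype labels. Of the 7 acinar markers listed, *Bhlha15* had at least 7808 counts and *Aqp5* at least 4897 counts in every library. The others varied more, with a lowest count of 111 for *Muc19*, of 1 for *Smgc*, *Dcpp1* and *Dcpp3*, and of 0 for *Dcpp2*. Knockout female 3 and wild-type male 3 stood apart, with 4902 and 7393 CPM of *Muc19*, a salivary mucin gene, against at most 174 CPM elsewhere, and with 111 to 750 CPM of *Dcpp1*, *Dcpp2* and *Dcpp3*. Wild-type female 3 and knockout males 2 and 3 had 2.89 to 6.80 CPM of *Adipoq*, an adipocyte gene, against at most 0.588 CPM elsewhere. Most counts of called factors are also given below without these libraries, and the part of these tissues in the results was not tested.

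Of the 89 factors, 70 passed the filter on low counts. The 19 that did not pass were 15 of the 16 *Eif1ad* copies that lie together on chromosome 12 (all but *Eif1ad2*), *Eef1a2*, *Eif4a3l1*, *Eif4a3l2* and *Eif4e1b*. Of these, 11 had no count in any library. *Eef1a2*, the eEF1A form of muscle and nerve, had 1 to 10 counts in 11 libraries and 63 counts in wild-type male 3. *Eif4e1b*, an oocyte form of the cap-binding protein, had 2 counts in 1 library.

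The levels of the factors spanned several orders of magnitude when divided by the length of the canonical transcript. Averaged over the 12 libraries, *Eef1a1* stood highest at 816 CPM per kb and made up 39.8% of the summed CPM per kb of the 89 factors; together with *Eef2*, at 273 CPM per kb, it made up 53.1%. Next came *Eif5a*, the hypusine-bearing factor that eases the formation of difficult peptide bonds, at 103 CPM per kb, then the scaffold *Eif4g2* at 59.3 and *Eif1* at 55.9. In contrast, the 5 subunits of eIF2B lay between 1.39 and 8.92 CPM per kb in wild-type females, and the 14 genes of eIF3 between 7.09 and 28.5.

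**Figure D1:**
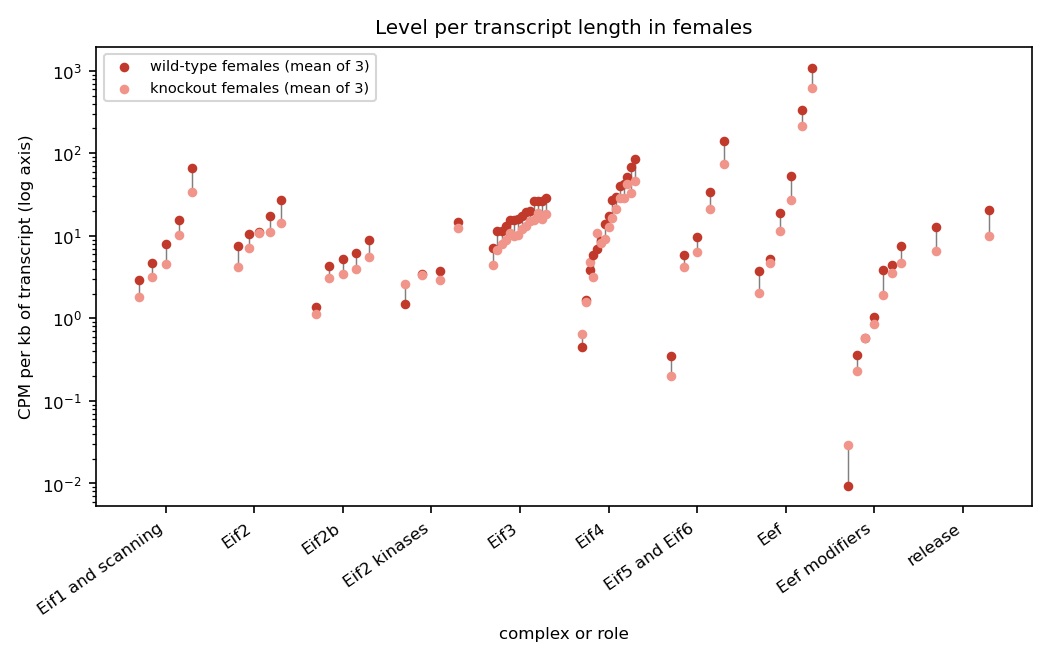
Level of each tested factor in CPM per kb of canonical transcript (vertical log axis), by complex (horizontal axis), as the mean of 3 wild-type females (dark) and of 3 knockout females (light) joined by a line. *Eef1a1* tops the plot at 1084 and 624 CPM per kb; *Eif1ad2* and *Eif2s3y*, listed at 0 in wild-type females, are not drawn.

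The first question was whether the factors differed between knockout and wild-type females. By edgeR's quasi-likelihood test with an adjusted p under 0.05, 50 of the 70 tested factors were lower in the knockout females and 4 were higher, against a background of 19.3% lower and 17.6% higher among the 17893 genes tested, and of 23.9% and 14.7% among the protein-coding genes. Among the 4 called higher, *Eif1ad2* had no count in any wild-type female and passed the low-count filter through the males, so it could not be called lower. The median log2 fold change was −0.60 over the factors, a fall of 34.1%, and 0.03 over all genes tested. In 55 of the 70 factors every knockout female lay below every wild-type female, which held for 24.1% of all genes; in 3 factors every knockout female lay above, which held for 25.2%. The decreases were moderate: only *Etf1* and *Eif4a1* fell by more than 1 on the log2 scale.

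These values depend on how libraries are scaled to each other. With total counts in place of TMM factors, an alternative added after seeing the data, 11 factors were lower and 5 higher, against 2.01% and 38.2% of all genes, while the median of all genes moved up to 0.53; the median of the factors was then −0.10, which is 0.63 below that of all genes. Of the 54 calls 15 held in that setting, and 12 decreases turned to values of at most 0.21 above 0: those of *Eif2ak1*, *Eif2b1*, *Eif3a*, *Eif3f*, *Eif3g*, *Eif3k*, *Eif3l*, *Eif4a2*, *Eif4b*, *Eif4ebp1*, *Eif4h* and *Eif5b*. The factors held 0.453% to 0.468% of all counts in wild-type females and 0.384% to 0.434% in knockout females. These shares and the total-count setting take in *Rn7s1*, a 7SL RNA gene, which alone had 27.0% to 34.5% of the counts in wild-type and 31.3% to 39.1% in knockout females, and 11.8% to 26.9% in males; its part in the result was not tested. Without the 2 libraries rich in *Muc19* 43 factors were lower, against 13.1% of all genes, and without the 3 rich in *Adipoq* 45 were, against 13.7%.

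**Figure D2:**
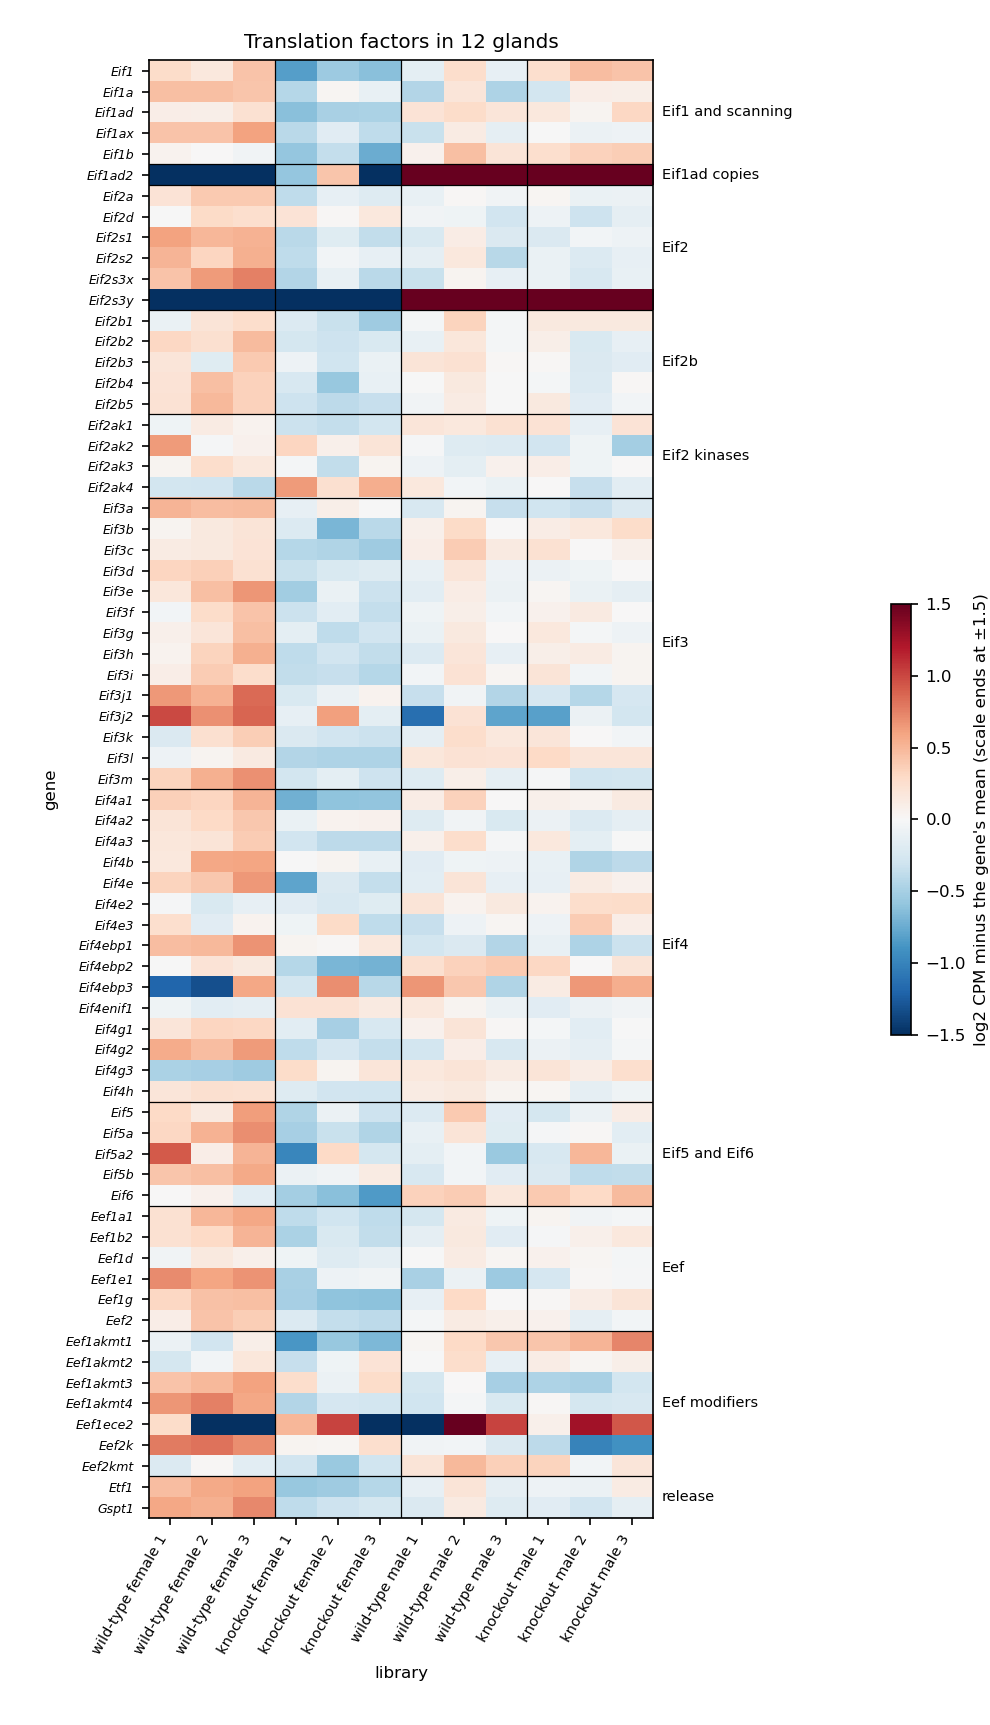
Log2 CPM (prior count 2) of the 70 tested factors in each of the 12 libraries, minus the gene's mean over the libraries, as colours that end at ±1.5, with genes grouped by complex. Most rows are red in the 3 wild-type females and blue in the 3 knockout females; *Eif4g3* and *Eif2ak4* show the opposite colours.

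Both termination factors were lower in knockout females, against 23.9% of protein-coding genes. *Etf1*, which reads all stop codons, measured 71.9, 77.5 and 79.4 CPM in the wild-type females and 35.1, 36.0 and 38.8 CPM in the knockout females. Its log2 fold change was −1.06 ± 0.11 (SE; adjusted p = 0.00012). The groups did not overlap, and the male libraries, at 47.3 to 59.6 CPM, lay between them. *Gspt1*, the GTPase that works with *Etf1*, fell by 0.93 ± 0.11 (adjusted p = 0.00019), from 86.6 ± 6.08 to 45.4 ± 1.99 CPM (SD, n = 3).

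All 5 genes of the eIF1 and eIF1A group were called lower in knockout females, against 23.9% of protein-coding genes. *Eif1*, which guards start codon choice, measured 88.6, 81.4 and 98.1 CPM in the wild-type and 41.2, 50.3 and 47.3 CPM in the knockout females (log2 fold change −0.95 ± 0.13, adjusted p = 0.00036). *Eif1ax*, an X-linked eIF1A gene, fell by 0.80 ± 0.12 (adjusted p = 0.00043). Smaller decreases were found for *Eif1ad* (0.67), *Eif1a* (0.60) and *Eif1b* (0.56). The call of *Eif1a* was lost without knockout female 1, and that of *Eif1b* without the 2 libraries rich in *Muc19*.

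The eIF2 subunits fell as well. *Eif2s1*, the subunit that the stress kinases phosphorylate, measured 26.7, 24.8 and 25.4 CPM in the wild-type and 13.3, 15.5 and 13.7 CPM in the knockout females (log2 fold change −0.85 ± 0.11, adjusted p = 0.00027). *Eif2s3x*, the X-linked gene of the GTP-binding subunit, fell by 0.93 ± 0.13 (adjusted p = 0.00035) and *Eif2s2* by 0.63 ± 0.13. Of the alternative carriers of the initiator tRNA, *Eif2a* fell by 0.56 ± 0.09 while *Eif2d* measured −0.06 ± 0.11 and was not called. *Eif2s3y*, the copy on the Y chromosome (1008409 to 1047462, plus strand, GRCm39), had no count in any female library and 13.4 to 18.8 CPM in the males, so that the sex labels and this gene go together.

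Of the 5 subunits of eIF2B, the exchange factor that recharges eIF2, 4 were lower in knockout females, against 23.9% of protein-coding genes. *Eif2b5*, the catalytic subunit, went from 20.7, 24.9 and 22.7 CPM to 14.4, 13.6 and 14.0 CPM (log2 fold change −0.70 ± 0.10, adjusted p = 0.00046). *Eif2b4* fell by 0.63 ± 0.12 and *Eif2b2* by 0.61 ± 0.12. The call of *Eif2b2* was lost with the authors' factors, and that of the fourth, *Eif2b1*, without the libraries rich in *Muc19* and without those rich in *Adipoq*. *Eif2b3* measured −0.30 ± 0.16 and its libraries overlapped.

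Of the 4 eIF2 kinases 1 was called higher and 1 lower in knockout females. These shares lie near the 14.7% higher and 23.9% lower among protein-coding genes. *Eif2ak4*, the kinase known as GCN2 that senses uncharged tRNA, measured 8.27, 8.19 and 7.59 CPM in the wild-type females and 15.6, 11.8 and 14.7 CPM in the knockout females. It rose by 0.81 ± 0.13 (adjusted p = 0.00066), and every knockout female lay above all 9 other libraries. *Eif2ak1*, the haem-regulated kinase, fell by 0.36 ± 0.10 (adjusted p = 0.015), a call lost with upper-quartile factors and without the libraries rich in *Muc19*. *Eif2ak2*, the kinase activated by double-stranded RNA, measured −0.06 ± 0.17, and *Eif2ak3*, the kinase of the endoplasmic reticulum, measured −0.27 ± 0.11 (adjusted p = 0.081).

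The eIF3 complex, the largest scaffold on the small subunit, moved as a group. Of its 14 genes 13 were lower in knockout females, against 23.9% of protein-coding genes. The log2 fold changes ran from −0.77 to −0.42, with an SD between genes of 0.11. *Eif3m* measured 30.3, 34.7 and 38.7 CPM in the wild-type and 19.8, 21.7 and 19.4 CPM in the knockout females (−0.77 ± 0.12, adjusted p = 0.00054). *Eif3c*, a core subunit, went from 59.1, 60.4 and 62.7 to 40.6, 39.9 and 37.6 CPM (−0.63 ± 0.10, adjusted p = 0.00062). The 8 core subunits had a median of −0.57 and the 6 peripheral ones of −0.59. The smallest decrease, that of *Eif3k* (0.42 ± 0.15, adjusted p = 0.036), was lost in 8 of 24 alternatives. The uncalled gene was *Eif3j2*, at −0.69 ± 0.31; it shares 94.9% of its 31-base stretches with other genes, mostly *Eif3j1*, so reads of the pair may be split between them. Their summed level was 79.3 ± 8.05 CPM in wild-type and 47.1 ± 4.84 CPM in knockout females (SD, n = 3).

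Of 15 tested genes of the eIF4 group 10 were lower and 2 higher, against 23.9% and 14.7% of protein-coding genes. The share higher lies near that background. All 5 tested helicase genes and cofactors were lower, though the call of *Eif4b* was lost without the libraries rich in *Muc19* and without those rich in *Adipoq*. *Eif4a1*, the main helicase, measured 119, 116 and 132 CPM in the wild-type and 56.1, 61.0 and 61.1 CPM in the knockout females (−1.04 ± 0.11, adjusted p = 0.00013). Its paralogue *Eif4a2* fell by 0.29 ± 0.10 (adjusted p = 0.037), the smallest decrease called, which was lost in 10 of 24 alternatives. *Eif4a3*, the exon junction form, fell by 0.61 ± 0.11. *Eif4a1* shares 69.2% of its 31-base stretches with other genes, mostly the pseudogene *Eif4a-ps4*.

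Among the cap-binding proteins *Eif4e* went from 27.0, 28.1 and 33.5 CPM in the wild-type to 12.3, 18.4 and 16.6 CPM in the knockout females (−0.91 ± 0.15, adjusted p = 0.00081). Its paralogues *Eif4e2* and *Eif4e3* measured −0.08 ± 0.09 and −0.08 ± 0.19 and were not called. The eIF4E-binding repressors *Eif4ebp1* and *Eif4ebp2* fell by 0.47 ± 0.11 and 0.72 ± 0.12, and *Eif4ebp3*, at no more than 54 counts in any library, was not called.

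The scaffolds on which the cap-binding complex is built parted. *Eif4g2*, which serves initiation without eIF4E, fell from 678, 635 and 716 CPM to 354, 386 and 359 CPM (−0.89 ± 0.13, adjusted p = 0.00045), and *Eif4g1*, the canonical scaffold, fell by 0.57 ± 0.12 (adjusted p = 0.0032). *Eif4g3*, its paralogue, measured 43.1, 42.2 and 41.2 CPM in the wild-type and 72.6, 61.6 and 67.8 CPM in the knockout females, an increase of 0.68 ± 0.09 (adjusted p = 0.00027). The males, at 64.4 to 71.0 CPM, lay within the range of the knockout females, so that the wild-type females were the low group. *Eif4enif1*, which moves eIF4E into the nucleus and represses its mRNAs, rose by 0.31 ± 0.09 (adjusted p = 0.014), from 14.2 ± 0.482 to 17.7 ± 0.570 CPM (SD, n = 3); this call was lost in 7 of 24 alternatives, among them each of 5 female libraries left out in turn.

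**Figure D3:**
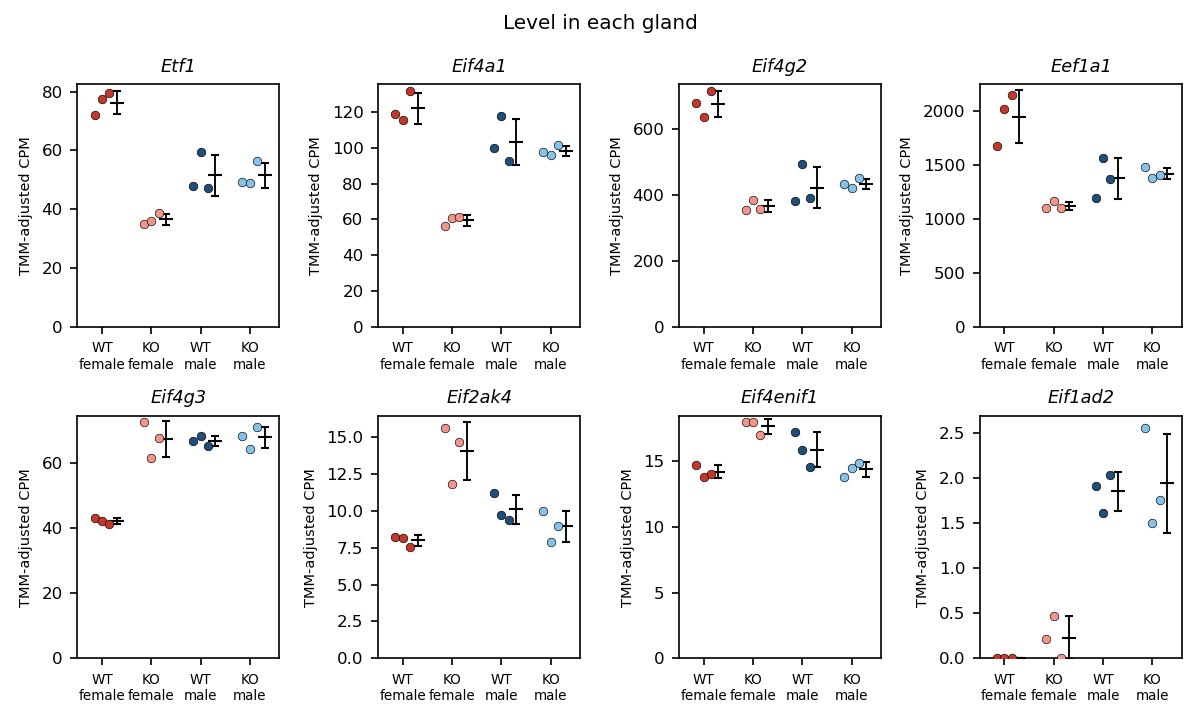
TMM-adjusted CPM of 8 factors in each library, with points for single mice and bars for the mean and SD of 3 mice in each of the 4 groups. *Etf1*, *Eif4a1*, *Eif4g2* and *Eef1a1* have their highest mean in wild-type females and their lowest in knockout females, *Eif4g3* is lowest in wild-type females, and *Eif1ad2* is near 0 in females and between 1.51 and 2.57 CPM in males.

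Subunit joining and elongation followed the same direction. *Eif5a* measured 169, 196 and 221 CPM in the wild-type and 96.4, 108 and 99.4 CPM in the knockout females (−0.95 ± 0.13, adjusted p = 0.00037); its rare paralogue *Eif5a2*, at 0.599 to 2.31 CPM in the 12 libraries, was not called. *Eif6*, which keeps the large subunit apart until it is mature, fell by 0.63 ± 0.11 (adjusted p = 0.0011), *Eif5b* by 0.48 ± 0.09 and *Eif5* by 0.64 ± 0.18. The call of *Eif5* was lost in 5 of 24 alternatives, among them the fit without wild-type female 3 and those without the libraries rich in *Muc19* or *Adipoq*.

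Of the 6 tested genes of the Eef group 5 were lower, against 23.9% of protein-coding genes. Among them was *Eef1e1* (−0.86 ± 0.15), which encodes a protein of the multi-tRNA synthetase complex. *Eef1a1* went from 1674, 2015 and 2144 CPM to 1098, 1162 and 1098 CPM (−0.80 ± 0.15, adjusted p = 0.0014), and *Eef2* from 1027 ± 119 to 668 ± 46.2 CPM (SD, n = 3; −0.62 ± 0.13, adjusted p = 0.0035). The eEF1B subunit *Eef1g* fell from 93.7, 102 and 103 to 53.6, 49.6 and 49.5 CPM (−0.97 ± 0.11, adjusted p = 0.0002) and *Eef1b2* fell by 0.71 ± 0.11. *Eef1d*, another subunit of the same exchange complex, measured −0.19 ± 0.08 (adjusted p = 0.095). *Eef1a1* and *Eef1g* share 72.3% and 68.0% of their 31-base stretches with other genes, largely pseudogenes.

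Of 6 genes of enzymes that modify the elongation factors 2 were called, both lower. This share lies near the 23.9% lower among protein-coding genes. *Eef1akmt4*, a lysine methyltransferase of eEF1A, fell by 0.996 ± 0.15 (adjusted p = 0.00059), from 4.42, 4.71 and 4.17 to 2.04, 2.33 and 2.29 CPM; 43.3% of its 31-base stretches occur in other genes, mostly *Eef1ece2*. *Eef2k*, the kinase that inactivates eEF2, measured 49.8, 51.1 and 46.9 CPM in the wild-type and 29.8, 29.4 and 34.5 CPM in the knockout females (−0.66 ± 0.14, adjusted p = 0.003). The methyltransferases *Eef1akmt2*, *Eef1akmt3* and *Eef2kmt* measured −0.02, −0.35 and −0.27 and were not called. Nor was *Eef1akmt1*, at −0.64 ± 0.25 (adjusted p = 0.061). For *Eef1akmt1*, *Eef1akmt3* and *Eef2kmt* every knockout female lay below every wild-type female, which held for 24.1% of all genes tested. *Eef1ece2*, a read-through gene of *Eef1akmt4* and *Ece2*, had 0 to 20 counts per library and was not called.

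**Figure D4:**
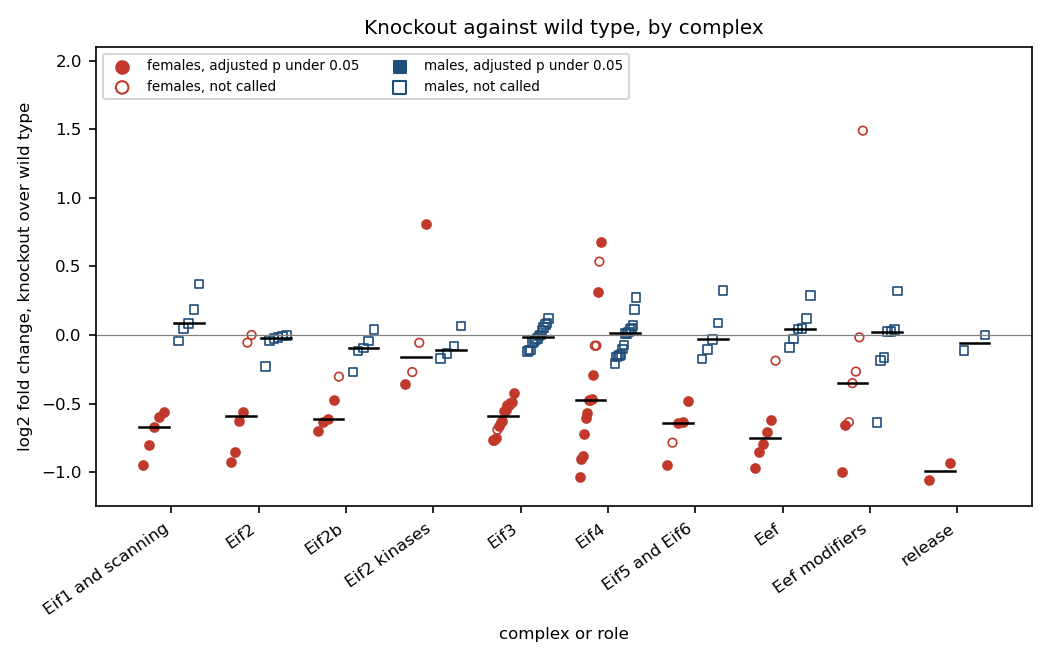
Log2 fold change of knockout over wild type (vertical axis) for each tested factor by complex, in females (circles) and males (squares); filled symbols have an adjusted p under 0.05 and black lines are medians. Medians in females run from −0.995 for the release factors to −0.16 for the eIF2 kinases, while those in males lie between −0.11 and 0.08; *Eif1ad2* is not drawn.

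Since levels after scaling depend on the whole library, ratios of 2 counts within a library were also taken, for pairs chosen with the values known. The ratio of *Eif4g3* to *Eif4g1* was 0.155 ± 0.0118 in the wild-type and 0.367 ± 0.0170 in the knockout females (SD, n = 3). The wild-type males had 0.278 ± 0.0114 and the knockout males 0.314 ± 0.00532. The 2 female groups lay at the extremes and no group overlapped another. The ratio of *Eif4a2* to *Eif4a1* was 1.04 ± 0.0526 in wild-type females and 1.71, 1.74 and 1.77 in knockout females, against 0.847 to 0.996 in the males. The ratio of *Eif2ak4* to *Eif2ak3* went from 0.119 ± 0.0116 in wild-type to 0.251 ± 0.0134 in knockout females.

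The cap-binding paralogues gave a wider spread. The ratio of *Eif4e2* to *Eif4e* was 0.404 to 0.538 in wild-type and 0.677 to 1.06 in knockout females, without overlap. That of *Eef2k* to *Eef2* did not separate the female groups, at 0.0484 ± 0.00648 and 0.0471 ± 0.00660, and was lower in the males, at 0.0282 to 0.0342 in the wild type and 0.0189 to 0.0253 in the knockout.

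**Figure D5:**
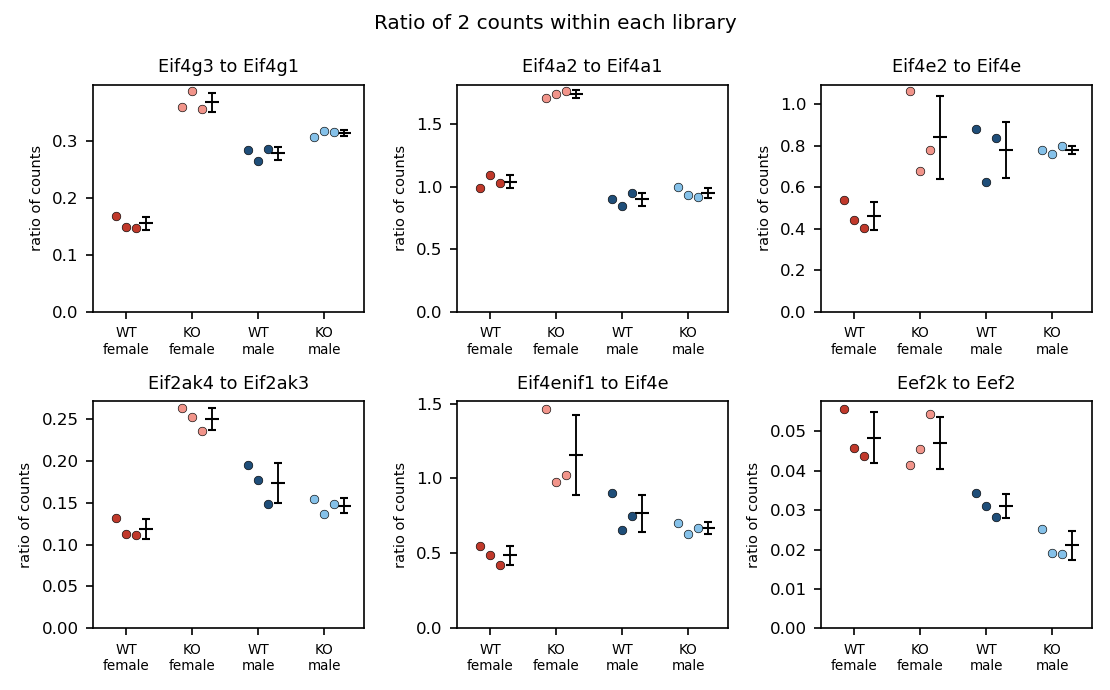
Ratio of the counts of 2 factors within each library for 6 pairs, with points for single mice and bars for the mean and SD of 3 mice per group; no scaling between libraries enters. The *Eif4g3* to *Eif4g1* ratio runs from 0.148 to 0.169 in wild-type females and from 0.355 to 0.387 in knockout females.

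*Eif1ad2*, a gene without a known role in the SMG that lies at 87782246 to 87787457 on chromosome 12 (plus strand, GRCm39), had 0 counts in each wild-type female and 11, 28 and 0 counts in the knockout females. It had 144, 114 and 143 counts in the wild-type and 159, 93 and 112 counts in the knockout males. It was called higher in knockout females (adjusted p = 0.01), although 1 of them had no count and another held most of the counts. Since *Eif1ad2* passed the low-count filter through the males and had no count in wild-type females, it could not be called lower. Of its 31-base stretches 97.9% occur in other genes, chiefly *Eif1ad6*, which had 5, 2 and 3 counts in the wild-type females, so counts of these copies are uncertain.

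In males no factor was called lower or higher, where 0.134% and 0.101% of all genes were. Nor was any without the libraries rich in *Muc19*, where 0.0327% and 0.0109% of all genes were. For the fit without those rich in *Adipoq*, which leaves 1 knockout male, only the median of the factors is given, at 0.02. With edgeR the smallest adjusted p was 0.10 and 2 factors had an unadjusted p under 0.05; DESeq2 called 1 factor, against 0.989% of all genes lower and 1.22% higher. The median log2 fold change was −0.01, with 40 of 70 values below 0, and 41 of 70 had the same sign in both sexes. *Etf1*, the factor that fell most in females, measured 51.6 ± 6.98 CPM in wild-type and 51.5 ± 4.35 CPM in knockout males (SD, n = 3). The farthest value was that of *Eef2k*: 27.9, 28.0 and 24.8 CPM in the wild-type and 22.0, 14.4 and 15.3 CPM in the knockout males, without overlap (−0.64 ± 0.14, adjusted p = 0.10). DESeq2, the fit without a low-count filter and the fit without knockout male 1 called it lower, where 0.989%, 0.54% and 1.68% of all genes were lower. In all, 5 factors had every knockout male below every wild-type male, against 7.95% of all genes, and 1 (*Eef1akmt1*) lay above, against 6.51%.

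The difference between the female and male contrasts was tested as an interaction. It was negative for 38 factors and positive for 4, against 12.4% and 13.4% of all genes, with a median of −0.53. With total counts 2 were negative and 5 positive, against 0.721% and 32.0% of all genes, and the median was 0.09, which is 0.55 below that of all genes. All 42 were also called in females. Among those called, the largest negative values were those of *Eif1* (−1.32 ± 0.18, adjusted p = 0.0028), *Eef1e1* (−1.14 ± 0.22) and *Etf1* (−1.06 ± 0.15). *Eif1* measured 66.1, 88.0 and 67.4 CPM in the wild-type and 87.4, 101 and 98.0 CPM in the knockout males. The call of *Eef1e1* was lost with the authors' factors and with total counts. Positive values were found for *Eif2ak4* (0.98 ± 0.18, adjusted p = 0.0047), *Eif4g3* (0.65 ± 0.12, adjusted p = 0.0049), *Eif4enif1* (0.45 ± 0.12, adjusted p = 0.02) and *Eif1ad2*, which had no count in any wild-type female and passed the low-count filter through the males, so that no decrease in females could be measured. Among groups the interaction was called for all 5 eIF1 genes, 11 of 14 eIF3 genes and both release factors, but for none lower and 1 higher of the 4 eIF2 kinases. The number of negative calls fell to 24 without wild-type male 1, where 5.94% of all genes were still called negative, to 14 without the 2 libraries rich in *Muc19*, where 2.44% were, and to 0 without the 3 rich in *Adipoq*, a fit that leaves 1 knockout male and called none of the 19381 genes it tested, while the median of the factors was −0.59.

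Wild-type males were set against wild-type females to place the knockout females; the 2 comparisons share the wild-type females. Of the 70 factors 32 were lower and 5 higher in the males, against 16.0% and 20.5% of all genes, with a median of −0.30. The lowest values were those of *Eif3j2* (−1.31 ± 0.31), *Eef1e1* (−1.03 ± 0.15) and *Eif3j1* (−0.95 ± 0.12). Of the 5 called higher, *Eif2s3y* and *Eif1ad2* had no count in any wild-type female and passed the low-count filter through the males alone, so that their direction was fixed by it. The others were *Eif4g3* (0.66 ± 0.09), *Eef2kmt* (0.47 ± 0.13) and *Eif6* (0.33 ± 0.11). Without wild-type male 1 21 were lower, against 11.2% of all genes, without the libraries rich in *Muc19* 21, against 10.2%, and without those rich in *Adipoq* 23, against 11.7%. With total counts, which put the median of all genes at 0.96, none was lower and 50 were higher, against 1.64% and 67.7% of all genes; the median of the factors then lay 0.36 below that of all genes.

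Across the 4 groups the wild-type females had the highest mean for 47 factors and the knockout females the lowest for 48, against 26.9% and 28.8% of all genes. All 3 knockout females lay below all 9 other libraries for 32 factors, against 11.9% of all genes. All 3 wild-type females lay above the others for 32, against 9.05%. These orders hold after TMM scaling. With total counts 50 factors were higher and 0 lower in wild-type males than in wild-type females, against 67.7% and 1.64% of all genes. The female log2 fold change of the 70 factors was not ordered by transcript length (Spearman's rho 0.09, a description across genes that share the same libraries).

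Many mRNAs of the translation machinery carry a 5' terminal oligopyrimidine (TOP) tract, an unbroken run of C and T at the cap by which mTOR signalling controls their translation. Of 9 factors listed as TOP mRNAs 8 were lower in knockout females, with a median of −0.67, and *Eef1d* was not called. Of the 61 tested factors outside the list 42 were lower, and of all protein-coding genes 23.9%. To show what these starts look like, 30 bases around the annotated start of the canonical transcript (10 before it and 20 from it on, Gencode M39 on GRCm39, 5′ to 3′) are printed below for the 3 TOP factors with the longest runs in this window, for 2 other TOP factors and for 3 of the 4 factors that rose (all but *Eif1ad2*), with the longest run of C and T within the window in capitals.
Eef1a1: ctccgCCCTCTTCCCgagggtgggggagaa
Eef1g: cccctcgCTTTTTCCaactcagcggggctg
Eif3f: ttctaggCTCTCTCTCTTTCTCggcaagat
Eef2: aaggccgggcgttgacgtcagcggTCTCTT
Eif3e: cggggCCactactgcacatgcgcagtgcgg
Eif4g3: agtggcatctgttatgttaataagTCCTTg
Eif2ak4: ccccaggttcgTCTCCCgctggagatcctg
Eif4enif1: gggagagccgcgccggagggccgggCCTCg

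The windows lie at chr9:78388987-78389016 (minus strand) for *Eef1a1*, chr19:8944395-8944424 (plus) for *Eef1g*, chr7:108533611-108533640 (plus) for *Eif3f*, chr10:81012455-81012484 (plus) for *Eef2*, chr15:43146155-43146184 (minus) for *Eif3e*, chr4:137720323-137720352 (plus) for *Eif4g3*, chr2:118218972-118219001 (plus) for *Eif2ak4* and chr11:3152616-3152645 (plus) for *Eif4enif1*; each spans the end of the promoter and the first bases of exon 1 of that transcript. A run of at least 7 bases made of C and T, on the coding strand, was present in 13 of the 70 factors (18.6%), in 3 of the 9 TOP factors and in 2555 of the 14181 protein-coding genes tested. The runs of *Eef1a1* (10 bases), *Eef1g* (8 bases) and *Eif3f* (15 bases) are the longest of the 9 within the window. The other 6 TOP factors had 2 to 6 such bases in a row there, and the 3 shown of those that rose 4 to 6; the runs of *Eef2* and *Eef1d* reach an edge of the window and may be longer. Annotated starts need not be those used in the gland.

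The wider pathway was read from lists of related genes, to be set beside the 23.9% lower and 14.7% higher among all protein-coding genes. Of 5 genes of poly(A)-binding proteins and of proteins that bind them, 4 were lower in knockout females. Among them were the poly(A)-binding protein gene *Pabpc1* (−0.83, adjusted p = 0.0009) and *Paip2b* (−0.94). Of 5 genes of the eIF2 phosphatases 4 were lower, including *Ppp1r15b* (−0.87) and the catalytic subunit *Ppp1cb* (−1.04), while the stress-induced *Ppp1r15a* measured 0.03. Of 7 genes of recycling and rescue only *Abce1*, which splits ribosomes after termination, was lower (−0.91, adjusted p = 0.0004). Of 3 genes of hypusine and selenocysteine use 1 was lower (*Dohh*). The shares of these last 2 lists lie near the background.

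Genes upstream of the factors and of the mitochondrial machinery had shares of called genes near those of all protein-coding genes (23.9% lower, 14.7% higher). Of 13 genes of mTOR and MNK signalling 4 were lower and 2 higher: *Rps6kb2*, an S6 kinase, rose by 1.30 (adjusted p = 0.00044) and *Tsc1*, an inhibitor of mTORC1, by 0.57, while *Mtor* measured −0.14 and was not called. Of 9 factors of mitochondrial translation, a separate machinery encoded by other genes, 3 were lower (*Tufm*, *Gfm1* and *Mrrf*) and the median was 0.04. In males none of the genes on these lists was called, where 0.134% of all genes were lower and 0.101% higher.

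Some markers of cell types were also called, against the same background of 23.9% lower and 14.7% higher among protein-coding genes. Of 7 acinar markers only *Aqp5*, a water channel, was called lower in knockout females (−0.94, adjusted p = 0.0011; mean 301 CPM in the wild-type and 157 CPM in the knockout females); *Bhlha15* measured −0.25 and *Smgc* −1.01, while *Muc19*, *Dcpp1*, *Dcpp2* and *Dcpp3*, high in knockout female 3, measured 3.21 to 4.68 and were not called. The median of the list, 3.21, is the value of *Dcpp1* and so rests on knockout female 3. Knockout females 1 and 2 had 8.61 and 7.15 CPM of *Muc19*, and the wild-type females 9.98, 174 and 7.93 CPM. The summed level of the list ran from 968 to 4293 CPM in wild-type and from 1613 to 7296 CPM in knockout females. Of 6 markers of the granular convoluted tubule 2 were higher in knockout females, while in wild-type males 5 were higher and *Klk1* was lower (−1.04), and their summed level was 4371 to 9118 CPM in females and 51100 to 92340 CPM in males. Macrophage markers were lower in knockout females for 3 of 6 genes, with sums of 87.6 to 254 CPM in wild-type and 70.8 to 118 CPM in knockout females. Of 4 adipocyte markers 2 were lower, with sums of 3.13 to 41.2 and 2.38 to 4.801 CPM. Of 5 myoepithelial markers 3 were lower, with sums of 128 to 172 and 101 to 116 CPM. Of 4 duct, 3 endothelial and 4 neuron and glia markers 1 each was called, lower in the first 2 lists and higher in the last. Of 6 skeletal muscle markers 2 were tested and 1, *Acta1*, was lower in knockout females, at mean levels of 0.105 CPM in the wild-type and 0.0056 CPM in the knockout females; in wild-type males *Acta1* was higher (4.06) and *Ckm* lower (−1.70). In wild-type males, where 18.5% of protein-coding genes were lower and 22.0% higher than in wild-type females, 5 of 6 macrophage, all 4 adipocyte, all 3 endothelial and 3 of 7 acinar markers were lower, and 4 of 5 myoepithelial markers were higher. The interaction was negative for 4 of 6 macrophage markers (median −1.48) and all 4 adipocyte markers (median −8.52), against 15.4% of protein-coding genes, and was called for no marker of the other lists. Fewer cells of a type and less RNA per cell cannot be told apart in whole glands, and the part of cell composition in the decreases was not tested. Of the 6 tuft cell markers *Gnat3* and *Il25* had no count in any library, and *Trpm5* and *Pou2f3* had at most 4 and 10 counts. *Dclk1*, at 477 to 1198 counts per library, measured 0.19 in females and was not called. *Avil* was called higher in knockout females, but it had only 2 to 55 counts per library. Its mean level was 0.171 CPM in the wild-type and 0.735 CPM in the knockout females.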

How the data were processed

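RNA of 12 SMGs was sequenced by the authors from stranded, rRNA-depleted libraries (the labels name polyA RNA). The authors deposited estimated counts per gene, made with Salmon 1.10.1 against Gencode M35 on GRCm39, and a normalized signal, made in a way not given in the sources used here; by its values, it is the count divided by a factor that differs by gene and library, called the authors' factors here. After rounding to integers, they were fitted with edgeR 4.0.16 (quasi-likelihood test, TMM, filterByExpr, 1 mean per group over all 12 libraries) in R 4.3.3, with Benjamini-Hochberg adjustment over the 17893 genes tested. SEs were taken from the F statistic (log2 fold change over root F). The normalized signal entered only as offsets in 1 alternative. Gene classes, lengths and starts were read from Gencode M39, where 55563 deposited genes were found. A 31-base stretch counted as shared if it occurs in transcripts of another gene.

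The 4 contrasts were the effect of the knockout in females and in males, their difference, and wild-type males against wild-type females. The mice of a group are separate animals; their numbers are not said to pair them. Groups of 3 against 3 allow no exact test of a single gene below p = 0.10, so none was used. Named factors are, per complex, the 2 with the smallest adjusted p in females, every factor called higher in females, the 10 largest interactions called, the 5 highest per length, the paralogue pairs, the kinases, and all that missed the filter; others were named after their values were seen. The factors and gene lists were chosen with earlier results of these data known. Alternatives were RLE and upper-quartile factors, library sizes without the 20 most abundant genes, the authors' factors, no low-count filter, a minimum of 10 counts per library, a replicate block, a fit within each sex, DESeq2 1.42.0, each library left out, and 3 added after seeing the data: total counts, and leaving out the libraries highest in *Muc19* or in *Adipoq*. The steps were tested on simulated data. A count of 0 allows up to 3 counts per library, which covers counting error only. Summaries used pandas 2.3.3 and numpy 2.4.6 under Python 3.11.15, and plots matplotlib 3.10.9.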

Additional observations from a re-analysis of the deposited data

Results flagged for a closer look

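A difference between females and males in the response to the knockout was called for 42 factors, by the test of the interaction itself. Of these interactions 38 were negative and 4 positive, against 12.4% and 13.4% of all genes. With total counts in place of TMM factors 2 were negative and 5 positive, against 0.721% and 32.0% of all genes. Without wild-type male 1, 24 were negative, against 5.94% of all genes. Without the 2 libraries highest in *Muc19*, 14 were, against 2.44%. The 10 largest were those of *Eif1ad2* (6.73 as fitted, a value that depends on the prior count since wild-type females had no count), *Eif1* (−1.32), *Eef1e1* (−1.14), *Etf1* (−1.06), *Eef1akmt4* (−1.02), *Eef1g* (−1.01), *Eif2ak4* (0.98), *Eif4a1* (−0.96), *Eif4e* (−0.95) and *Eif4g2* (−0.93). For the fit without the 3 libraries highest in *Adipoq*, which leaves 1 knockout male, only the median interaction of the factors is given here. It was −0.59, against −0.53 with all libraries. The call of *Eif1ad2* held in 13 of 22 alternatives, and that of *Eef1e1* was lost with the authors' factors and with total counts. *Eef1e1*, which encodes a protein of the multi-tRNA synthetase complex, measured 9.78, 9.02 and 9.57 CPM in wild-type females and 4.25, 5.67 and 5.75 CPM in knockout females, while the males ran from 4.07 to 6.03 CPM. For *Eif1* the wild-type females measured 89.4 ± 8.39 and the knockout males 95.5 ± 7.21 CPM (SD, n = 3), against the 46.2 ± 4.63 CPM of the knockout females.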

How the results depend on the processing

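Of the 54 factors called in females 47 were called under every alternative listed above other than the 3 added ones, as were 24 of the 42 interactions and 22 of the 37 differences between wild-type males and females, each in the alternatives in which the gene was tested; with a minimum of 10 counts per library *Eif1ad2* and *Eif2s3y* were not tested, nor was *Eif1ad2* in the fit of females alone. Leaving out 1 library at a time gave 47 to 54 factors lower and 3 to 4 higher in knockout females, 0 to 1 lower and 0 higher in knockout males, 24 to 49 negative and 2 to 4 positive interactions, and 21 to 37 lower and 4 to 6 higher in wild-type males. The 1 factor lower in males, *Eef2k*, was called without knockout male 1, without a low-count filter and by DESeq2, where 1.68%, 0.54% and 0.989% of all genes were lower. With the authors' factors 3 factors were higher in wild-type males, and *Eif3h* turned from lower to 0.027. Same-numbered mice did not deviate together (correlations from −0.14 to 0.09 across genes), and with a replicate block 50 factors were lower and 4 higher in females, 0 in males, 35 and 4 had an interaction, and 30 were lower and 6 higher in wild-type males. Without the libraries highest in *Muc19* 14 interactions were negative and 21 factors were lower in wild-type males; without those highest in *Adipoq* 0 interactions were called in either direction and 3 factors were higher in wild-type males.

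With total counts, 11 factors were lower in knockout females, against 2.01% of all genes. Of the interactions 2 were negative and 5 positive (0.721% and 32.0% of all genes). In wild-type males 0 factors were lower and 50 higher, against 1.64% and 67.7% of all genes. This setting moves the median of all genes to 0.53, 0.64 and 0.96 in the 3 contrasts. The factors called in a contrast whose log2 fold change turned from below to above 0 were, in females, Eif2ak1 0.15, Eif2b1 0.039, Eif3a 0.0069, Eif3f 0.0020, Eif3g 0.011, Eif3k 0.096, Eif3l 0.015, Eif4a2 0.21, Eif4b 0.039, Eif4ebp1 0.042, Eif4h 0.029 and Eif5b 0.023. For the interaction they were Eif2a 0.057, Eif2b2 0.087, Eif2b4 0.11, Eif3b 0.027, Eif3c 0.088, Eif3d 0.099, Eif3f 0.036, Eif3g 0.11, Eif3l 0.10, Eif4a3 0.11, Eif4ebp1 0.14 and Eif4ebp2 0.061. Between wild-type males and females they were Eef1a1 0.39, Eef1akmt3 0.13, Eef1akmt4 0.024, Eef1b2 0.49, Eef1g 0.55, Eef2k 0.018, Eif1a 0.20, Eif1ax 0.28, Eif2a 0.52, Eif2b2 0.55, Eif2b5 0.57, Eif2d 0.59, Eif2s1 0.23, Eif2s2 0.30, Eif2s3x 0.14, Eif3a 0.22, Eif3d 0.57, Eif3e 0.41, Eif3h 0.53, Eif3m 0.29, Eif4a2 0.44, Eif4b 0.35, Eif4e 0.39, Eif4ebp1 0.046, Eif4g2 0.19, Eif5a 0.35, Eif5b 0.27, Etf1 0.32 and Gspt1 0.18.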
